A study of Homo sapiens with 18 samples.

Results

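The cells compared are SK-N-MC cells exposed for 1 week to 50 nM rotenone (1w50 nM, 3 arrays) and SK-N-MC cells kept for 1 week with the ethanol vehicle alone (1w0 nM, 3 arrays), chosen by their labelled dose and time, which makes 6 of the 18 arrays of the study. The other 12 arrays hold 5 nM rotenone at 1 week and all 3 doses at 4 weeks, and they entered the filter, the choice of probe sets and the estimate of the spread, and the 1w5 nM arrays also serve for a comparison of doses. All cells grew in medium with serum and without pyruvate. The methods describe 3 experiments, in each of which several dishes per condition were pooled before the RNA was extracted and hybridized to 1 Affymetrix GeneChip, so each array averages over dishes. One established line was used, and the 50 nM dose is described in the labels as killing some of the cells, so RNA of dying or surviving cells cannot be told apart from RNA of cells that respond. The labels call the line a neuroepithelioma line, and the study calls it neuroblastoma. Of 20 genes known from Ewing sarcoma 16 had a probe set, without NR0B1, LIPI, EGR2 and XG, and they differed in brightness. CD99 lay between 3021 and 3231 in 1w50 nM and between 2249.8 and 3409.8 in 1w0 nM. FLI1 lay between 279.0 and 367.6 in 1w50 nM and between 371.6 and 529.5 in 1w0 nM. For GLI1 the ranges were 204.9 to 229.7 in 1w50 nM and 108.7 to 189.4 in 1w0 nM. Of 16 sympathetic markers of neuroblastoma with a probe set, 10 passed the filter and 3 rose, DBH, GATA2 and GATA3, with a median log2 fold change of 0.35 over the 10. GATA2, a transcription factor, lay between 663 and 668 in 1w50 nM and between 359.6 and 541 in 1w0 nM, and ALK, a receptor kinase, between 239 and 332 in 1w50 nM and between 135.5 and 245 in 1w0 nM. Others were near the floor. TH, the first enzyme of catecholamine synthesis, lay between 11.96 and 19.7 in 1w50 nM and between 11.4 and 14.7 in 1w0 nM, and DDC lay below 16 on all 6 arrays.

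Rotenone is a plant-derived pesticide that blocks electron transfer in complex I of the mitochondrial respiratory chain and that also binds tubulin and depolymerizes microtubules. A block of the chain lowers the supply of ATP and of oxidized NAD, which cells need to make aspartate, and it is known in many cells to activate the kinases that phosphorylate eIF2-alpha. Phosphorylated eIF2-alpha favours translation of ATF4, a factor that switches on amino acid synthesis, amino acid transport and tRNA charging genes, and CHOP (DDIT3), its partner in prolonged stress. For this reason the genes of amino acid supply, protein folding, respiration, microtubules and cell division are described by group, beside the genes with the largest changes.

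Values are the model-based expression indexes (MBEI) of the authors on a linear scale, called signals here. Any signal under 16 was raised to 16 ahead of the log2 transform, and the true change of a gene at this floor may be greater than the value given. A log2 fold change is 1w50 nM minus 1w0 nM, given ± SE from the limma fit, and a gene is said to rise or fall where its adjusted p is below 0.05. The median signal of an array lay between 90.2 and 92.9 in the 1w50 nM group and between 87.2 and 96.8 in the 1w0 nM group. The upper quartile lay between 271.7 and 283.8 in the 1w50 nM group. It was 313.5, 330.6 and 259.2 in 1w0 nM replicates 1, 2 and 3, and between 305.8 and 352.7 in the 12 arrays outside this comparison. The part of this difference in the results was not tested. RNA integrity was read from control probe sets at both ends of a transcript. For GAPDH the 3' end over the 5' end was, in log2, 0.06, 0.13 and -0.01 in the 1w50 nM arrays, against -0.05, -0.03 and 0.05 in the 1w0 nM arrays, and for ACTB it was 0.03, 0.05 and 0.04 against -0.22, -0.06 and 0.13. The GAPDH ratios of 1w50 nM replicates 1 and 2 were above the highest of the 12 arrays outside this comparison, 0.0566, and the part of RNA integrity in the results was not tested. An exact permutation test of 3 against 3 arrays cannot give a two-sided p under 0.1, so no test of these measures is given. The 3 arrays of the 1w50 nM group correlated with each other across genes at r between 0.981 and 0.988. Replicates 1 and 2 of the 1w0 nM group correlated at 0.981, whereas replicate 3 correlated with them at 0.937 and 0.914, no better than with the 1w50 nM arrays, where it reached between 0.936 and 0.941. Genes are not independent replicates, and these correlations are descriptions. Against the mean of the other vehicle arrays, 755 of 9162 genes were at least 2-fold lower in 1w0 nM replicate 3 and 169 were at least 2-fold higher. The corresponding counts were 104 and 342 for replicate 2, and 44 and 76 for replicate 1. In the 1w50 nM group no array differed that much from the other arrays in more than 47 genes.

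With all arrays, 1036 genes fell (11.3% of 9162) and 802 rose (8.75%). Falls of at least 2-fold numbered 127 (1.39%), and rises of at least 2-fold numbered 100 (1.09%). The median log2 fold change over all genes was 0.02. Of the 127 large falls, 117 had all 3 of their 1w50 nM signals below all 3 of their 1w0 nM signals, and of the 100 large rises 95 had all 3 above. Over all genes 15.6% were separated downward and 15.6% upward.

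The number of falls depended on which vehicle array was in the comparison. Without 1w0 nM replicate 3, 1836 genes fell (20%) and 1271 rose (13.9%), with 336 falls (3.67%) and 156 rises (1.70%) of at least 2-fold. Without replicate 1, 674 fell (7.36%) and 555 rose (6.06%), with 120 changes of at least 2-fold in each direction (1.31% down and 1.31% up). Without replicate 2, 688 fell (7.51%) and 658 rose (7.18%), with 94 falls (1.03%) and 146 rises (1.59%) of at least 2-fold. Without 1w50 nM replicate 1, 2 or 3, the falls numbered 541, 682 and 955. Leaving out any array other than 1w0 nM replicate 3 thus lowered the number of falls, and leaving out that array raised it. Large changes were called more steadily than changes of any size. Of the 127 large falls, 109 were still called without each of the 3 vehicle arrays in turn and 105 without each of the 6 arrays, and of the 100 large rises 85 were, whereas 468 of all 1036 falls and 292 of all 802 rises were still called without each of the 6. In 88 of the 127 large falls, 1w0 nM replicate 3 was the lowest of the vehicle arrays, so that for most of them this array was the one nearest to the 1w50 nM signals. Replicate 1 was the lowest in 26 and replicate 2 in 13. The same count was not made over all genes, so it cannot be called a trait of the large falls.

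**Figure D1:**
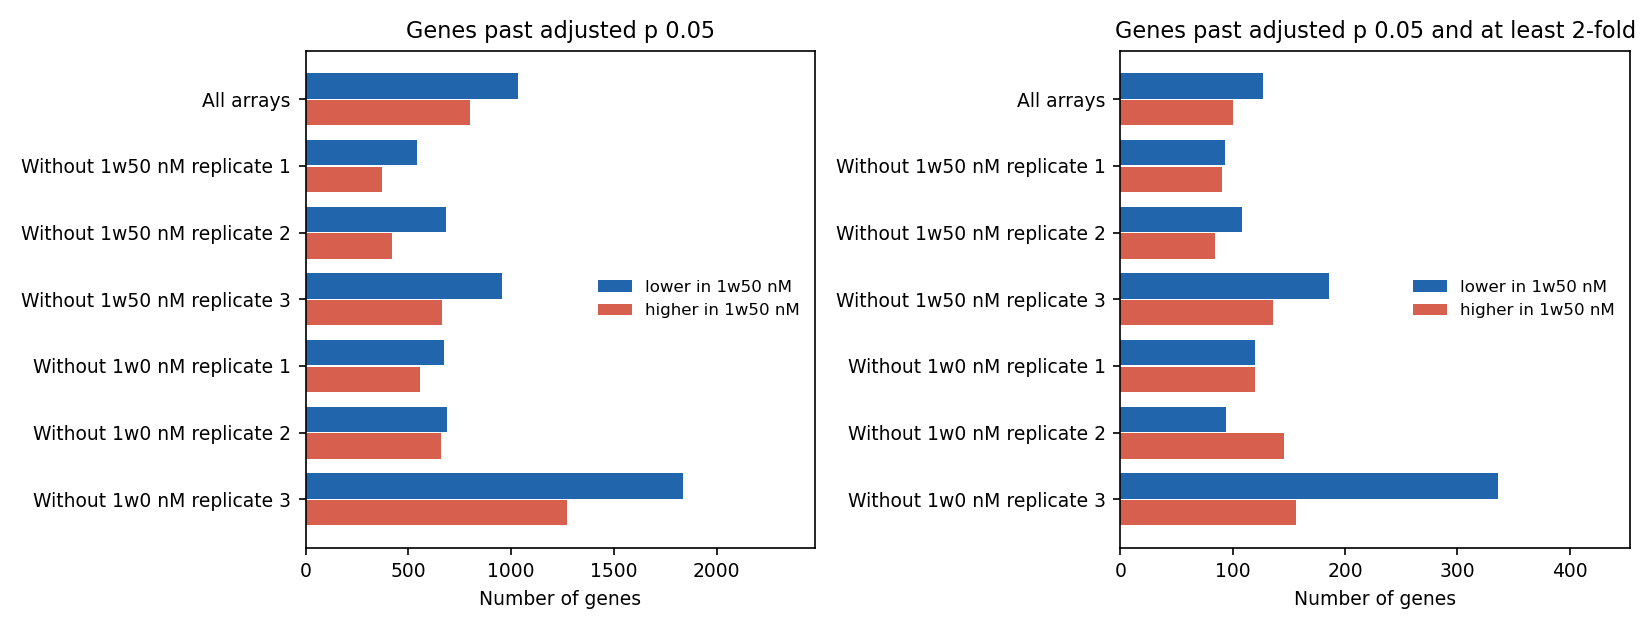
Number of genes (x axis) that were lower (blue) or higher (red) in 1w50 nM than in 1w0 nM at a limma adjusted p below 0.05, with all arrays and with each of the 6 arrays left out; the right panel counts only changes of at least 2-fold. Without 1w0 nM replicate 3 the falls number 1836, against 1036 with all arrays, and the falls of at least 2-fold number 336, against 127.

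The 15 largest falls with separated arrays were called in each of the 6 leave-outs, where their adjusted p reached at most 0.036. SLC6A15, a transporter that brings neutral amino acids into neurons, had the largest, with signals of 29.3, 51.4 and 63.4 in the 1w50 nM arrays, against 251, 286 and 263 in the 1w0 nM arrays. The 3 vehicle arrays lay close together here, and the log2 fold change was -2.54 ± 0.27 (adjusted p = 1.91e-05). A second transporter of this family, the taurine carrier SLC6A6, had signals of 4.78, 14.2 and 23.3 in the 1w50 nM arrays, against 112, 28.3 and 97.2 in the 1w0 nM arrays. The signals of 1w50 nM replicates 1 and 2 are under the floor, so that its log2 fold change of -1.90 ± 0.40 (adjusted p = 0.0039) understates the fall, and vehicle replicate 2 lay close to the highest 1w50 nM array. A second probe set of SLC6A6 that passed the filter gave a log2 difference of -0.14, so the probe sets disagree. FABP7, the brain fatty acid binding protein of radial glia, had signals of 40.6, 46.3 and 29.5 in the 1w50 nM arrays, against 267, 137 and 205 in the 1w0 nM arrays (-2.36 ± 0.41, adjusted p = 0.00107), and its second probe set above the filter fell by 2.45 on the log2 scale.

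Amino acid metabolism accounts for 3 further genes among the 15. Signals of ASNS, which makes asparagine from aspartate and glutamine, were 365, 440.1 and 533 in the 1w50 nM arrays, against 1380.2, 1528 and 1813 in the 1w0 nM arrays. No vehicle array stood apart, and the log2 fold change was -1.83 ± 0.24 (adjusted p = 0.000116). PSAT1, the transaminase of serine synthesis, had 575, 589 and 919 in the 1w50 nM arrays, against 1881, 2214 and 1754 in the 1w0 nM arrays (-1.52 ± 0.19, adjusted p = 8.28e-05). For BCAT1, the cytosolic transaminase of branched-chain amino acids, the signals were 111, 116 and 236 in the 1w50 nM arrays, against 513, 476 and 412 in the 1w0 nM arrays, and 1w50 nM replicate 3 was the highest of its group in PSAT1 and BCAT1 alike. BCAT1 fell by 1.68 on the log2 scale (adjusted p = 0.000116), and by 1.62 on its second probe set.

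Several of the remaining large falls code for signalling and transcription proteins. GNA13, the alpha subunit of a G protein that activates RhoA, had signals of 34.7, 18.8 and 41.1 in the 1w50 nM arrays, against 145, 183 and 79.2 in the 1w0 nM arrays, with vehicle replicate 3 the lowest of its group (-2.10 ± 0.29, adjusted p = 0.000174). GABPA, an ETS-family factor that binds promoters of many nuclear genes for mitochondrial proteins, had 32.9, 32.7 and 55.4 in the 1w50 nM arrays, against 149.9, 182 and 73.5 in the 1w0 nM arrays (-1.69 ± 0.29, adjusted p = 0.00107). ELK4, an ETS partner of serum response factor, measured 9.51, 16.3 and 14.4 in the 1w50 nM arrays, against 32.2, 66.6 and 49.4 in the 1w0 nM arrays. The 1w50 nM signals of replicates 1 and 3 were under the floor of 16 and that of replicate 2 was next to it, and its fall is at least 2.94-fold (adjusted p = 0.00242). In GNA13 and GABPA the vehicle signal of replicate 3 was the lowest and that of replicate 2 the highest. Both stayed clear of the 1w50 nM range, as the choice of these genes requires.

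PDK1, the kinase that keeps pyruvate out of the mitochondrial pyruvate dehydrogenase, had signals of 24.6, 24.7 and 35.6 in the 1w50 nM arrays, against 146, 60.2 and 118 in the 1w0 nM arrays (-1.86 ± 0.34, adjusted p = 0.00172). SERPINI1, neuroserpin, a protease inhibitor that neurons secrete, had 22.3, 28.8 and 29.2 in the 1w50 nM arrays, against 96.04, 118 and 77.8 in the 1w0 nM arrays (-1.85 ± 0.30, adjusted p = 0.000696). MANEA, a Golgi mannosidase, measured 40.1, 51.7 and 58.3 in the 1w50 nM arrays, against 168, 194 and 154 in the 1w0 nM arrays (-1.79 ± 0.19, adjusted p = 2.1e-05). The groups do not overlap in these 3 genes because all 15 were chosen for that, and MANEA had the narrowest vehicle range of the 3. The last of the 15 were HERC4, a HECT ubiquitin ligase (-1.90 ± 0.32), EPB41L4B, a FERM-domain protein of the cell cortex (-2.03 ± 0.43), and CCPG1, a receptor that sends endoplasmic reticulum to autophagy (-1.80 ± 0.41). In CCPG1 it was vehicle replicate 3 that was highest, at 142, against 43.4 and 56.7 in the other vehicle arrays.

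**Figure D2:**
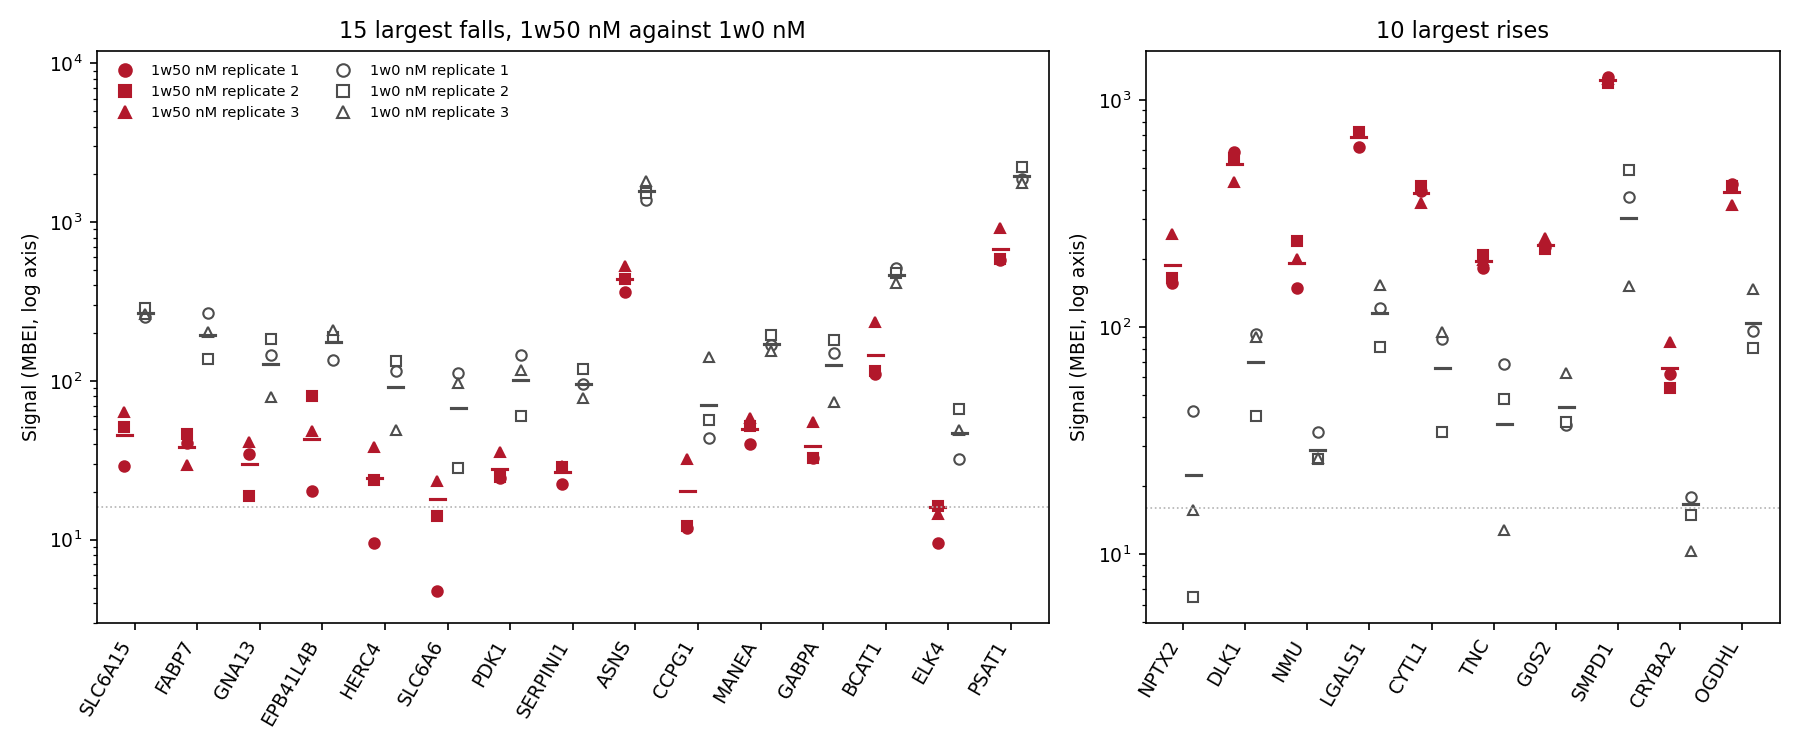
Signals (MBEI, log axis) of the 15 genes with the largest falls (left) and the 10 with the largest rises (right), filled red for 1w50 nM arrays and open grey for 1w0 nM arrays, one marker shape per replicate. Bars are means of the log2 signals after the floor of 16, drawn as a dotted line; the groups do not overlap in any of these genes, which were chosen for that, and the 1w50 nM markers of ELK4 lie at or just below or above the floor.

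Many targets of ATF4 and CHOP fell. Of 37 measured genes of this list, 21 fell and none rose, with a median log2 fold change of -0.70 against 0.02 over all genes tested, of which 11.3% fell. Without vehicle replicate 1, 2 or 3 the falls numbered 20, 15 and 21, with 2 rises in the last case, and 13 of the 21 were called in each of these fits. The median over the list of the 1w50 nM mean minus a single vehicle array was -0.48 for vehicle replicate 1, -0.80 for replicate 2 and -0.61 for replicate 3 on the log2 scale, below 0 for each. Beside ASNS and PSAT1, the falls comprised CEBPG, a C/EBP partner of ATF4, with 159.7, 194 and 210.2 in the 1w50 nM arrays, against 444, 506 and 542 in the 1w0 nM arrays (-1.41 ± 0.16, adjusted p = 4.07e-05). They also comprised CTH, which makes cysteine from cystathionine, with 95.2, 83.2 and 98.8 in the 1w50 nM arrays, against 253, 182 and 355 in the 1w0 nM arrays (-1.46 ± 0.20, adjusted p = 0.000156), and XPOT, the nuclear export factor of tRNA, with 867, 858 and 1054 in the 1w50 nM arrays, against 1482, 2029.8 and 2154 in the 1w0 nM arrays (-1.02 ± 0.16, adjusted p = 0.000475). ATF4 itself, which is not in the list and was looked at after the values were seen, had 2387, 2659.6 and 2817 in the 1w50 nM arrays, against 3043, 3734 and 3794 in the 1w0 nM arrays (-0.42 ± 0.15, adjusted p = 0.0489). In all of these genes the highest 1w50 nM signal was under the lowest vehicle signal.

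The stress factors of the list behaved less evenly. ATF3 fell, with 92.9, 105 and 98.9 in the 1w50 nM arrays, against 182, 216 and 147 in the 1w0 nM arrays (-0.86 ± 0.16, adjusted p = 0.00198), and so did CHAC1, which degrades glutathione, with 134, 132 and 116 in the 1w50 nM arrays, against 242, 268 and 160.4 in the 1w0 nM arrays (-0.78 ± 0.18, adjusted p = 0.00621). ATF5 fell with all arrays (-1.48 ± 0.45, adjusted p = 0.0287) but gave -1.10 and an adjusted p of 0.121 without vehicle replicate 2, whose signal of 2644 was above the 916 and 1625 of the others. ATF5 was also not called without 1w50 nM replicate 1 or without 1w50 nM replicate 2. TRIB3, a pseudokinase that CHOP induces, had 358, 369 and 383 in the 1w50 nM arrays, against 551, 1015 and 1953 in the 1w0 nM arrays. Its groups did not overlap, but its vehicle arrays spread so widely that it was not called (log2 fold change -1.48 ± 0.55, adjusted p = 0.0671), and it passed only without vehicle replicate 1 (-1.93, adjusted p = 0.0386). DDIT3, CHOP itself, chosen here after its values were seen, showed the same order of vehicle arrays, with 471, 511 and 552 in the 1w50 nM arrays, against 559, 965 and 2198 in the 1w0 nM arrays (-1.05 ± 0.52, adjusted p = 0.161), and was not called. Within the vehicle group, TRIB3 and DDIT3 were highest in replicate 3 and lowest in replicate 1.

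**Figure D3:**
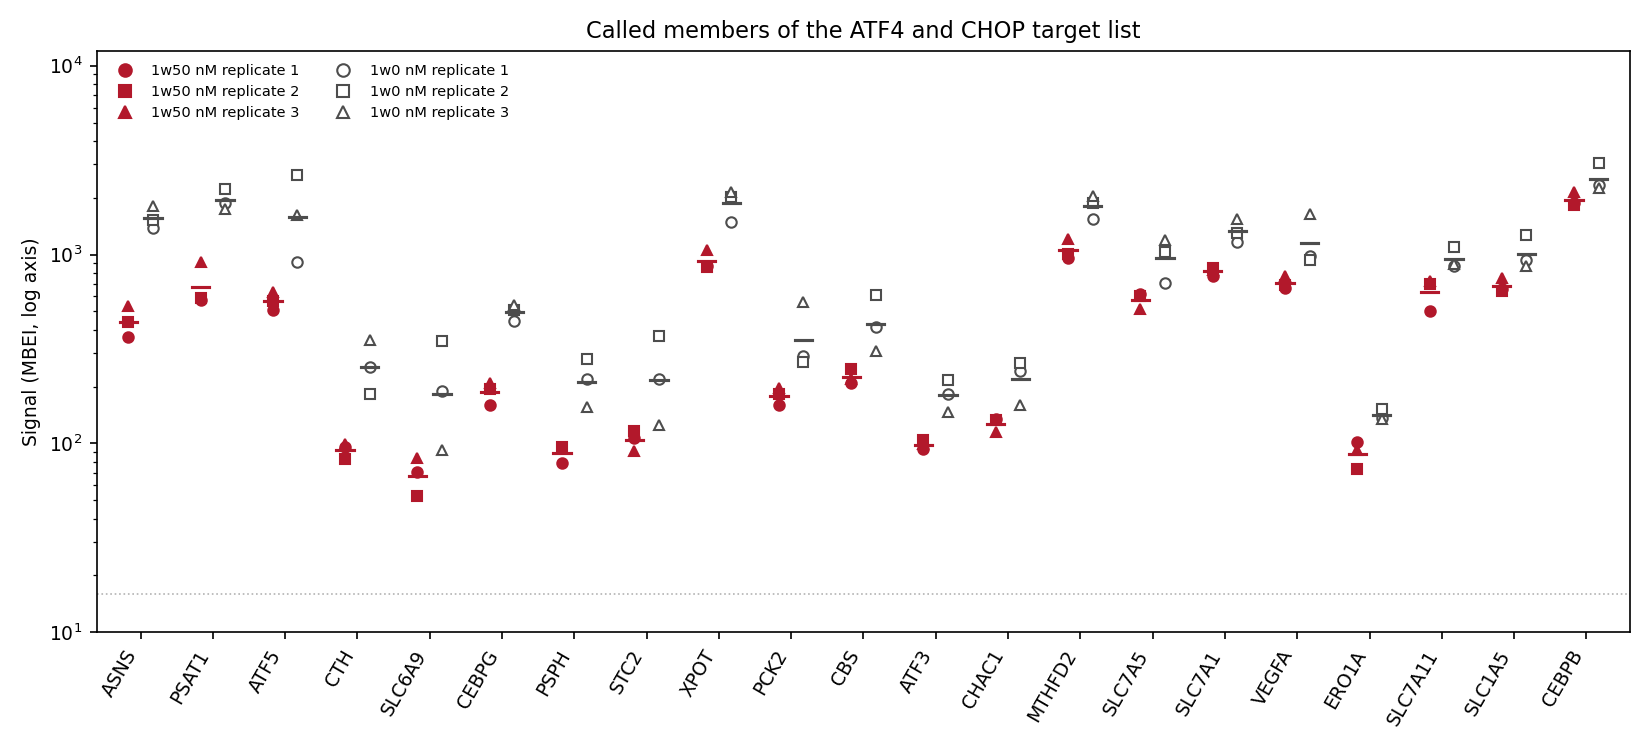
Signals (MBEI, log axis) of the 21 called genes of the ATF4 and CHOP target list, ordered by log2 fold change, filled red for the 1w50 nM arrays and open grey for the 1w0 nM arrays, with one marker shape per replicate, bars at the means of the log2 signals and a dotted line at the floor of 16. All 21 are lower in 1w50 nM, with log2 fold changes between -1.83 (ASNS) and -0.37 (CEBPB), and the vehicle replicates change places from gene to gene.

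ATF4 binds its targets together with C/EBP proteins at a composite site, and a site of this kind in the ASNS promoter is well known. The promoter windows of the genes in RefSeq (GRCh38.p14, 250 bases before to 50 bases after a start site) were therefore searched on both strands for TGATGNAAN, the C/EBP-ATF response element. It was found in 3.61% of 35116 windows. Of the 30 ATF4 and CHOP target genes with a window, 7 held it, and of the 18 that fell, 6 did. For comparison, 2.97% of the 7482 tested genes with a window held it, 3.70% of those that fell and 3.37% of those that rose. A match is a description of letters and says nothing of binding in these cells. The 5 genes of the list with the largest falls among those that hold a match are printed to show where the match lies. The 250 bases before the ASNS start site are given whole, minus strand, at chr7:97872409-97872658, and the others with 20 bases on either side or up to the match where it lies behind the start site, CEBPG at chr19:33374051-33374099, ATF3 at chr1:212565196-212565244 and CHAC1 at chr15:40953241-40953289, all plus strand, and SLC7A1, a carrier of cationic amino acids, at chr13:29595673-29595701, minus strand. Capitals mark the match, which runs on the opposite strand in CHAC1.
ASNS: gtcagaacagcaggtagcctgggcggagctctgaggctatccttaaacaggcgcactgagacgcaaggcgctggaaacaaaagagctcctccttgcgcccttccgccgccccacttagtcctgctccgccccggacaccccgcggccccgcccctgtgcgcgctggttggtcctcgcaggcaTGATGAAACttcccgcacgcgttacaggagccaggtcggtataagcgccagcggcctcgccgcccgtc
CEBPG: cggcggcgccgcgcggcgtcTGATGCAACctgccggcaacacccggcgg
ATF3: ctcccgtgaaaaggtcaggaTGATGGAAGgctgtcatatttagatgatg
CHAC1: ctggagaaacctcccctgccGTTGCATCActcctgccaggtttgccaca
SLC7A1: gcgggggccgggcgcactgcTGATGAAAC

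In ASNS the match lies at -68 to -60 relative to the start site, in CEBPG at -42 to -34, and in SLC7A1 at 7 to 15. SLC7A1 had 771, 850.5 and 828 in the 1w50 nM arrays, against 1164, 1298 and 1549 in the 1w0 nM arrays (-0.70 ± 0.20, adjusted p = 0.0178). SLC3A2, the partner chain of several amino acid carriers, held a match and was not called (log2 fold change -0.50 ± 0.19, adjusted p = 0.0643). A match and a fall were thus not tied one to one.

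The aminoacyl-tRNA synthetases, which load tRNAs with their amino acids, fell in 8 of 17 measured genes and rose in none, where 11.3% of all genes fell. Their median log2 fold change was -0.48. Without vehicle replicate 1, 2 or 3 the falls numbered 6, 4 and 6, and 4 genes fell in each of these fits. TARS1, for threonine, had 822, 945 and 902 in the 1w50 nM arrays, against 1233, 1252 and 1889.7 in the 1w0 nM arrays (-0.69 ± 0.16, adjusted p = 0.00726). EPRS1, for glutamate and proline, had 709.9, 729 and 758 in the 1w50 nM arrays, against 1048, 1099 and 1401 in the 1w0 nM arrays (-0.68 ± 0.17, adjusted p = 0.0112). IARS1, for isoleucine, measured 2356, 2211 and 2666 in the 1w50 nM arrays, against 3005, 3115 and 4044 in the 1w0 nM arrays (-0.48 ± 0.12, adjusted p = 0.0112), and was not called without 1w50 nM replicate 2. In these 3 genes the groups were separated and vehicle replicate 3 was the highest array, the opposite of its place in most of the large falls. The median over the list of the 1w50 nM mean minus a single vehicle array was -0.29, -0.37 and -0.61 for replicates 1, 2 and 3. Of 14 synthetase genes with a promoter window 6 held the response element, among them 3 of the 7 that fell.

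Endoplasmic reticulum chaperones and genes of the unfolded protein response fell in 4 of 28 measured genes, where 11.3% of all genes fell. None of them rose, and the median was -0.25. The list followed single vehicle arrays. Its median was -0.02 against replicate 1, -0.54 against replicate 2 and 0.13 against replicate 3, and 1 fall was called in each of the fits without a vehicle array. That gene was ATF6, a membrane-bound sensor of the response, with 162, 159 and 172 in the 1w50 nM arrays, against 240.1, 249 and 288 in the 1w0 nM arrays (-0.65 ± 0.12, adjusted p = 0.0021). HSP90B1, the chaperone GRP94, fell with all arrays, with 322, 332 and 419 in the 1w50 nM arrays, against 604, 1127 and 438 in the 1w0 nM arrays (-0.91 ± 0.31, adjusted p = 0.0451), and was not called without vehicle replicate 1 or without replicate 2. DERL2, a part of the channel that exports misfolded proteins, had 68.8, 90.9 and 98.9 in the 1w50 nM arrays, against 249, 341 and 77.4 in the 1w0 nM arrays. The signal of vehicle replicate 3 lay inside the 1w50 nM range in DERL2, and its fall (-1.14 ± 0.38, adjusted p = 0.0416) was lost without vehicle replicate 1 or 2. HSP90B1 and DERL2 also lost the call without each of the 1w50 nM arrays. The ER stress response element, searched for in the same way, stood in 0.0769% of all windows, in 7 of 26 chaperone genes with a window and in 1 of the 4 that fell, HSP90B1.

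Groups of nuclear proteins are set beside all genes tested, of which 11.3% fell and 8.75% rose. Importins, exportins and nuclear pore proteins fell in 9 of 43 measured genes and rose in 3 (median -0.12), and 4 of the falls were at least 2-fold. Without vehicle replicate 1, 2 or 3 the falls numbered 7, 8 and 12, and 7 were called in each of these fits. KPNA4, an importin alpha, had 144, 151 and 264 in the 1w50 nM arrays, against 512, 559 and 343 in the 1w0 nM arrays (-1.37 ± 0.21, adjusted p = 0.000475), with vehicle replicate 3 the lowest vehicle array. KPNA5, of the same family, had 81.4, 70.9 and 97.00 in the 1w50 nM arrays, against 174, 175 and 212 in the 1w0 nM arrays (-1.17 ± 0.15, adjusted p = 9.34e-05). In KPNA5 vehicle replicate 3 was the highest array, and both genes were called in each of the 6 leave-outs. Chromatin regulators fell in 14 of 88 and rose in 4 (median -0.07), with 10, 10 and 24 falls without vehicle replicate 1, 2 or 3. SIRT1, a deacetylase that depends on NAD, had 155, 133.3 and 207 in the 1w50 nM arrays, against 332, 350.1 and 268 in the 1w0 nM arrays (-0.95 ± 0.18, adjusted p = 0.00231). Zinc finger genes of the ZNF series fell in 26 of 140 and rose in 8 (median -0.14), but in 17, 15 and 42 without vehicle replicate 1, 2 or 3, and 11 fell in each of these fits. ZNF22 had 383, 416 and 464 in the 1w50 nM arrays, against 785, 793 and 763 in the 1w0 nM arrays (-0.90 ± 0.11, adjusted p = 7.27e-05), with little spread in either group. Splicing factors fell in 11 of 68 and rose in 6, with a median of -0.01 and 9, 9 and 17 falls in the same 3 fits.

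DNA damage signalling and repair genes fell in 12 of 52 and rose in 3 (median -0.15), where 11.3% of all genes fell and 8.75% rose. Their falls numbered 8, 9 and 20 without vehicle replicate 1, 2 or 3, and 20% of all genes fell in the last case. MRE11, the nuclease that trims broken ends, had 125, 132.8 and 137 in the 1w50 nM arrays, against 260.2, 293 and 194 in the 1w0 nM arrays (-0.90 ± 0.16, adjusted p = 0.00109). RAD17, the clamp loader of the checkpoint, had 436, 448 and 483 in the 1w50 nM arrays, against 676, 717 and 677 in the 1w0 nM arrays (-0.60 ± 0.11, adjusted p = 0.00206). FANCI, of the Fanconi pathway, went the other way, with 1231, 1219.9 and 1210.0 in the 1w50 nM arrays, against 715, 660.3 and 607 in the 1w0 nM arrays (0.89 ± 0.16, adjusted p = 0.00125). Ubiquitin ligases, conjugating and deubiquitinating enzymes fell in 15 of 55 and rose in 2 (median -0.18). Its falls numbered 5 without vehicle replicate 1, 9 without replicate 2 and 21 without replicate 3, in the same order as the shares over all genes. CUL3, the scaffold of a family of ligases, had 1114, 1169 and 1263 in the 1w50 nM arrays, against 1527, 1587 and 1613 in the 1w0 nM arrays (-0.42 ± 0.10, adjusted p = 0.00699) and kept its call in each leave-out. Proteasome subunits fell in 3 of 35 with none rising and a median of 0.06, and 2, 2 and 5 fell without vehicle replicate 1, 2 or 3, with 3 rises in the last case.

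Subunits of complex I, the target of rotenone, showed small changes in both directions, 2 falls and 3 rises among 29 measured genes, with a median of -0.01. For all lists of this paragraph, the shares over all genes were 11.3% falling and 8.75% rising. Without vehicle replicate 3 these shares were 20% and 13.9%. Without vehicle replicate 1, 2 or 3 the falls of complex I numbered 2, 3 and 4 and its rises 2, 1 and 4. NDUFS1, the large iron-sulfur subunit, had 452, 444 and 560.1 in the 1w50 nM arrays, against 687, 627 and 881 in the 1w0 nM arrays (-0.59 ± 0.16, adjusted p = 0.0145). It was not called without 1w50 nM replicate 1 or without 1w50 nM replicate 2. NDUFA2, an accessory subunit, had 1896, 1805 and 1829 in the 1w50 nM arrays, against 1370.0, 1128 and 1625 in the 1w0 nM arrays (0.44 ± 0.10, adjusted p = 0.00772) and was the only rise of the 3 called without each vehicle array. NDUFA5 fell (-0.42 ± 0.10, adjusted p = 0.00948), but the mean of its probe sets gave 0.13, so the direction depended on the probe set. It was also not called without 1w50 nM replicate 1. Complexes II to V had 2 falls among 35 genes and no rise (median 0.00), with 3 rises without vehicle replicate 3. Among the falls was UQCRC2, a core protein of complex III, which had 1034, 1173 and 1072 in the 1w50 nM arrays, against 1428, 1381 and 1597 in the 1w0 nM arrays (-0.43 ± 0.10, adjusted p = 0.00644). Mitochondrial ribosomal proteins fell in 9 of 46 and rose in 3, and the falls numbered 5, 7 and 16 without vehicle replicate 1, 2 or 3. MRPL42 had 1016, 958 and 1478 in the 1w50 nM arrays, against 2040.4, 2109 and 1925 in the 1w0 nM arrays (-0.84 ± 0.17, adjusted p = 0.00251). Among carriers, import and shape genes 5 of 43 fell and none rose, with 2, 3 and 10 falls without vehicle replicate 1, 2 or 3 and 2 in each of these fits. SLC25A4, an ADP/ATP carrier, had 198, 197 and 196 in the 1w50 nM arrays, against 308, 319 and 369.7 in the 1w0 nM arrays (-0.75 ± 0.12, adjusted p = 0.00075). MFN1, which fuses outer membranes, had 122, 125 and 152 in the 1w50 nM arrays, against 277, 359 and 185 in the 1w0 nM arrays (-0.99 ± 0.19, adjusted p = 0.00184). Among 22 glycolysis genes 3 fell and 1 rose, with 1, 2 and 3 falls and 2, 1 and 3 rises in these fits. The rise was PFKL, the liver form of phosphofructokinase, with 1103, 898 and 793 in the 1w50 nM arrays, against 493, 455 and 404 in the 1w0 nM arrays (1.04 ± 0.17, adjusted p = 0.000699).

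Tubulins, motors and their cofactors fell in 7 of 41 genes and rose in 1, where 11.3% of all genes fell and 8.75% rose. Their median was 0.10. Of the 41, 10 had all 1w50 nM arrays above all vehicle arrays and 7 had all below, where 15.6% of all genes were separated each way. The list thus did not move one way. Microtubule-associated proteins fell in 5 of 26 and rose in 2, with a median of 0.03. DCTN4, a subunit of the dynein activator dynactin, had 149, 157 and 205 in the 1w50 nM arrays, against 326, 364 and 314 in the 1w0 nM arrays (-0.99 ± 0.14, adjusted p = 0.000287). KIF2A, a kinesin that shortens microtubules, had 426, 468 and 597 in the 1w50 nM arrays, against 800.4, 721 and 738 in the 1w0 nM arrays (-0.61 ± 0.13, adjusted p = 0.00347). KATNA1, the severing ATPase katanin, had 239, 244 and 284 in the 1w50 nM arrays, against 447, 405 and 479 in the 1w0 nM arrays (-0.80 ± 0.12, adjusted p = 0.00032). The groups were separated in these 3 genes and each was called in all leave-outs. The tubulin folding cofactors moved apart, TBCC falling (-0.87 ± 0.18, adjusted p = 0.00347) and TBCD rising (0.93 ± 0.20, adjusted p = 0.0039). Of the tubulins proper only TUBD1, delta-tubulin, was called, with 63.1, 59.5 and 59.03 in the 1w50 nM arrays, against 124, 137 and 86.9 in the 1w0 nM arrays (-0.91 ± 0.20, adjusted p = 0.00419).

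Lists of cell division and of cholesterol synthesis changed direction in their medians with vehicle replicate 3. With all arrays 11.3% of all genes fell and 8.75% rose, and without that array 20% fell and 13.9% rose. The G2 and mitosis list had 1 fall and 3 rises among 44 genes with all arrays, but 13 falls and 2 rises without that array, and its median was -0.34 against vehicle replicate 1, -0.18 against replicate 2 and 0.57 against replicate 3. The DNA replication list had 3 falls and 6 rises among 46 genes with all arrays and 6 falls and 1 rise without it. Its falls without that array were below the share over all genes. Its medians were -0.17, 0.01 and 0.55 against the 3 vehicle arrays. The cholesterol synthesis list had no fall and 1 rise among 18 genes with all arrays and 6 falls and 2 rises without it, with medians of -0.53, -0.51 and 0.42. For these 3 lists the direction of the comparison is opposite for vehicle replicate 3 and for replicate 1. Their part in the other results was not tested.

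Some regulators of division changed whichever vehicle array was left out. CDKN1B, the CDK inhibitor p27, had 100.3, 129 and 118 in the 1w50 nM arrays, against 274, 288 and 219.8 in the 1w0 nM arrays (-1.17 ± 0.16, adjusted p = 0.000181). ORC2, a subunit of the origin recognition complex, had 113, 117 and 136 in the 1w50 nM arrays, against 270.5, 225 and 176 in the 1w0 nM arrays (-0.86 ± 0.15, adjusted p = 0.00125). MYBL2, a factor of mitotic genes, had 1696, 1536 and 1320.1 in the 1w50 nM arrays, against 1023, 818 and 571 in the 1w0 nM arrays (0.95 ± 0.21, adjusted p = 0.00529). In MYBL2 the 3 vehicle signals were all below the 1w50 nM signals, with replicate 3 the farthest below. RB1, the retinoblastoma pocket protein that restrains E2F factors, had 210.3, 297 and 266 in the 1w50 nM arrays, against 442, 426 and 286 in the 1w0 nM arrays, and the signal of vehicle replicate 3 lay inside the 1w50 nM range. Its fall (-0.57 ± 0.17, adjusted p = 0.0228) was lost without vehicle replicate 1, without vehicle replicate 2 and without 1w50 nM replicate 1. A second, dimmer probe set fell by 1.68 on the log2 scale and gave 36.7, 37.9 and 53.1 in 1w50 nM against 137, 170.1 and 103 in 1w0 nM. B2M, a reference gene of the study, had 4233, 4281 and 4774 in the 1w50 nM arrays, against 4007, 4344 and 4407 in the 1w0 nM arrays and did not pass the test (adjusted p = 0.637).

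Rises were led by genes of secreted and matrix proteins. The neuropeptide gene NMU had 149, 239 and 201 in the 1w50 nM arrays, against 34.5, 26.3 and 26.4 in the 1w0 nM arrays (2.74 ± 0.18, adjusted p = 9.51e-08), and LGALS1, galectin-1, had 623, 725 and 725 in the 1w50 nM arrays, against 122, 81.3 and 154 in the 1w0 nM arrays (2.58 ± 0.17, adjusted p = 9.51e-08). DLK1, a membrane-bound ligand-like protein of the Notch family, had 588, 555 and 435 in the 1w50 nM arrays, against 93.3, 40.4 and 90.6 in the 1w0 nM arrays (2.90 ± 0.28, adjusted p = 8.62e-06). The vehicle arrays lay far below the 1w50 nM arrays in all 3 genes. NPTX2, a neuronal pentraxin, had 157, 165 and 256 in the 1w50 nM arrays, against 42.8, 6.49 and 15.7 in the 1w0 nM arrays, and the fold change of 3.08 ± 0.47 on the log2 scale (adjusted p = 0.000425) is a lower bound because vehicle replicates 2 and 3 were under the floor. Among metabolic genes, G0S2, which inhibits the lipase of lipid droplets, had 226, 220.0 and 246 in the 1w50 nM arrays, against 37.1, 38.4 and 62.6 in the 1w0 nM arrays (2.37 ± 0.19, adjusted p = 1.46e-06). SMPD1, acid sphingomyelinase, had 1267, 1188 and 1236 in the 1w50 nM arrays, against 375, 493 and 151 in the 1w0 nM arrays (2.02 ± 0.27, adjusted p = 0.000167), and 2 further probe sets above the filter gave 1.82 and 0.69. CYTL1, TNC, CRYBA2 and OGDHL completed the 10, and all 10 were called in each of the 6 leave-outs, with an adjusted p of at most 0.011.

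Collagens and other matrix genes rose in 14 of 47 and fell in none, where 8.75% of all genes rose, with a median log2 fold change of 0.35. Without vehicle replicate 1, 2 or 3 the rises numbered 15, 17 and 16, and 10 were called in each of these fits. BGN, the proteoglycan biglycan, had 426, 396 and 398 in the 1w50 nM arrays, against 147, 133.4 and 212 in the 1w0 nM arrays (1.34 ± 0.17, adjusted p = 8.63e-05). COL6A3, a chain of microfibrillar collagen VI, had 234, 241 and 239 in the 1w50 nM arrays, against 93.2, 40.8 and 86.2 in the 1w0 nM arrays (1.79 ± 0.25, adjusted p = 0.000228). COL1A1, a chain of fibrillar collagen I, had 852, 869.9 and 925 in the 1w50 nM arrays, against 482, 392 and 551 in the 1w0 nM arrays (0.91 ± 0.14, adjusted p = 0.000477). Groups were separated in all 3, with vehicle replicate 2 the lowest. Actin cytoskeleton and smooth muscle genes rose in 11 of 28 and fell in none, again with a median of 0.35, and 7 rose in each fit without a vehicle array. TAGLN, the actin-binding protein transgelin, had 118, 123 and 83.1 in the 1w50 nM arrays, against 33.9, 37.9 and 39.04 in the 1w0 nM arrays (1.53 ± 0.22, adjusted p = 0.000308). ACTA2, smooth muscle actin, had 315, 380.4 and 275 in the 1w50 nM arrays, against 139.9, 187 and 149.8 in the 1w0 nM arrays (1.02 ± 0.16, adjusted p = 0.000435).

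Markers of fibroblasts moved with the matrix genes. Of 13 measured markers 7 rose, each of them in every fit without a vehicle array, none fell, and the median was 0.88. Over all genes tested 8.75% rose and 11.3% fell. The summed signal of the list lay between 9586 and 10216 in the 1w50 nM arrays and between 5363 and 7294 in the 1w0 nM arrays. PDGFRB, the receptor of platelet-derived growth factor, had 117, 102 and 146 in the 1w50 nM arrays, against 53.04, 43.9 and 43.4 in the 1w0 nM arrays (1.37 ± 0.22, adjusted p = 0.000595), whereas POSTN did not pass the filter. Several members of this list are also collagens, so the lists overlap, and a share of another cell type cannot be told apart from a change within the SK-N-MC cells. Some of these markers differed more among the vehicle arrays than between the groups. COL3A1 measured 711, 703 and 954 in the 1w50 nM arrays, against 774, 1248 and 43.9 in the 1w0 nM arrays, and TWIST1, a mesenchymal transcription factor, 1737, 1776 and 2183 in the 1w50 nM arrays, against 1423, 2087 and 301 in the 1w0 nM arrays. Neither was called (adjusted p = 0.306 and 0.123), and in both it was vehicle replicate 3 that lay far below the rest. Of the epithelial markers 3 of 5 rose, KRT8 among them with 158, 163 and 198 in the 1w50 nM arrays, against 71.5, 43.6 and 47.2 in the 1w0 nM arrays (1.71 ± 0.19, adjusted p = 3.59e-05), while KRT19 read 1 on all 6 arrays. Of 16 Ewing sarcoma genes 6 rose and 2 fell, with 1, 0 and 4 falls without vehicle replicate 1, 2 or 3.

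Neuronal and synaptic genes rose in 7 of 38 and fell in 1, SLC6A15, where 8.75% of all genes rose and 11.3% fell. They had 5, 5 and 9 rises and 1, 1 and 4 falls without vehicle replicate 1, 2 or 3. SYT1, the calcium sensor of synaptic vesicles, had 171, 191 and 175 in the 1w50 nM arrays, against 102, 67.6 and 84.3 in the 1w0 nM arrays (1.10 ± 0.14, adjusted p = 9.34e-05). CRMP1, a cytosolic protein of growth cones, had 165, 173 and 193 in the 1w50 nM arrays, against 69.8, 80.1 and 103 in the 1w0 nM arrays (1.08 ± 0.16, adjusted p = 0.000287). Progenitor and glial genes rose in 5 of 22 and fell in 2. APOE rose, with 749.8, 685 and 744 in the 1w50 nM arrays, against 203, 312 and 339.8 in the 1w0 nM arrays (1.38 ± 0.28, adjusted p = 0.0029), and DLL3, a Notch ligand, fell, with 63.04, 52.5 and 68.1 in the 1w50 nM arrays, against 96.3, 91.5 and 128 in the 1w0 nM arrays (-0.77 ± 0.16, adjusted p = 0.00329), so the group moved both ways. Secreted peptides and growth factors rose in 13 of 45 and fell in 1, with 8, 11 and 14 rises without vehicle replicate 1, 2 or 3, and 7 of the rises were called without each vehicle array. IGFBP4, which binds insulin-like growth factors, had 1187, 1168 and 993 in the 1w50 nM arrays, against 522, 529.9 and 201 in the 1w0 nM arrays (1.54 ± 0.33, adjusted p = 0.00408), and TGFB1 had 1559.7, 1429 and 1424 in the 1w50 nM arrays, against 917, 953 and 535 in the 1w0 nM arrays (0.92 ± 0.17, adjusted p = 0.00179). The single fall was VEGFA, an angiogenic factor of the ATF4 list as well, at -0.69 ± 0.20 (adjusted p = 0.0235), which was not called without vehicle replicate 3.

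Antioxidant and glutathione genes rose in 8 of 38 and fell in 4 with all arrays, where 8.75% of all genes rose and 11.3% fell. Without vehicle replicate 1, 2 or 3 the rises numbered 4, 3 and 9, but 1 rise and 2 falls were called in each of the fits without a vehicle array. Without replicate 3, 13.9% of all genes rose and 20% fell. GCLM, the modifier subunit of the first enzyme of glutathione synthesis, had 217, 219.5 and 288 in the 1w50 nM arrays, against 459, 485 and 355 in the 1w0 nM arrays (-0.84 ± 0.19, adjusted p = 0.0051). NFE2L2, the factor NRF2 that drives GCLM and other defence genes, had 378, 434 and 487 in the 1w50 nM arrays, against 611, 809.8 and 557 in the 1w0 nM arrays (-0.60 ± 0.14, adjusted p = 0.00731). PRDX2, a cytosolic peroxiredoxin, rose, with 1628, 1556 and 1552 in the 1w50 nM arrays, against 1219.9, 1273 and 1010.2 in the 1w0 nM arrays (0.44 ± 0.10, adjusted p = 0.00697). Of 16 Parkinson disease genes 2 rose and none fell, PARK7, the redox-sensitive protein DJ-1, by 0.29 ± 0.07 (adjusted p = 0.0112) and FBXO7, a ubiquitin ligase adaptor, by 0.38 ± 0.10 (adjusted p = 0.0144), and PARK7 was not called without vehicle replicate 2. Neither PARK7 nor FBXO7 was called without 1w50 nM replicate 1. Among 36 death genes 4 fell and 3 rose, near the shares over all genes. They had 2, 2 and 6 falls and 3, 1 and 4 rises without vehicle replicate 1, 2 or 3. CASP2, an initiator caspase, rose, with 175, 154 and 146 in the 1w50 nM arrays, against 48.5, 59.9 and 64.7 in the 1w0 nM arrays (1.46 ± 0.19, adjusted p = 9.34e-05). Among 18 p53 targets 3 fell and 1 rose, and none of these calls held without each vehicle array.

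Single arrays decided the call of many other genes. This held for the 1w50 nM group as well, for without its replicate 1 only 532 of the 1036 falls and 361 of the 802 rises were still called. Leaving out vehicle replicate 3 added 1451 calls and removed 182, leaving out replicate 1 added 82 and removed 691, and leaving out replicate 2 added 186 and removed 678. The genes with the largest changes in each of these sets show how the arrays differ. FN1, fibronectin, had 1414, 1439.8 and 1674 in the 1w50 nM arrays, against 576, 954 and 36.9 in the 1w0 nM arrays, and so missed the threshold with all arrays despite separated groups (adjusted p = 0.05). Without replicate 1 it gave 3.00 (adjusted p = 0.0431), without replicate 2 3.37 (adjusted p = 0.013) and without replicate 3 1.02 (adjusted p = 0.165). CSRP1, a LIM protein of the actin cytoskeleton, had 938, 903 and 971 in the 1w50 nM arrays, against 538, 815 and 91.96 in the 1w0 nM arrays. CRIP1, a small LIM protein, had 1098, 1177 and 923 in the 1w50 nM arrays, against 668, 815 and 69.9 in the 1w0 nM arrays. Both had the layout of FN1, with vehicle replicate 3 alone far below. HSPB8, a small heat shock protein, had 350.1, 429 and 613 in the 1w50 nM arrays, against 363, 598 and 9.24 in the 1w0 nM arrays, and its log2 fold change was 2.57 without replicate 2 (adjusted p = 0.048) and -0.05 without replicate 3 (adjusted p = 0.95).

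The opposite layout, with replicate 3 within or below the range of the 1w50 nM signals and replicates 1 and 2 above it, was seen in PTPRC, a phosphatase best known from blood cells. It had 197, 262 and 286 in the 1w50 nM arrays, against 745, 1061 and 63.6 in the 1w0 nM arrays, and gave -1.86 without replicate 3 (adjusted p = 2.88e-05), 0.17 without replicate 2 (adjusted p = 0.871) and -0.59 with all arrays (adjusted p = 0.542). Of 9 blood cell markers with a probe set 5 passed the filter, PTPRC, CD3E, CD163, HBB and MS4A1, while CD3D, CD14 and LYZ were under the floor on all 6 arrays. The summed signal of the list lay between 577 and 604 in 1w50 nM and between 405 and 1362.5 in 1w0 nM. MS4A1, the B cell antigen CD20, rose in each of the 6 leave-outs and had 73.98, 59.8 and 57.02 in the 1w50 nM arrays, against 35.7, 19.9 and 32.2 in the 1w0 nM arrays (1.16 ± 0.27, adjusted p = 0.00672), and the part of other cell types in these values was not tested. NKX6-1, a homeobox factor, had 73.2, 48.96 and 154 in the 1w50 nM arrays, against 284, 325 and 60.6 in the 1w0 nM arrays, and fell by 1.89 on the log2 scale without replicate 3 (adjusted p = 0.000828), and it also passed the test without 1w50 nM replicate 3. YAP1, the coactivator of the Hippo pathway, had 14.3, 24.8 and 26.5 in the 1w50 nM arrays, against 44.8, 147 and 11.6 in the 1w0 nM arrays. CILK1, a ciliary kinase, had 8.56, 31.1 and 26.00 in the 1w50 nM arrays, against 89.4, 110.4 and 15.2 in the 1w0 nM arrays, and of the 6 leave-outs these genes passed only without vehicle replicate 3. Other calls needed that array. CLU, clusterin, had 175, 172 and 177 in the 1w50 nM arrays, against 105, 157 and 42.3 in the 1w0 nM arrays, and it was called with all arrays (0.98 ± 0.32, adjusted p = 0.0362) but not without vehicle replicate 3. ZNF467 fell with all arrays (-0.91 ± 0.31, adjusted p = 0.0481) and not without that array, where its signal was 469.9, against 204 and 226 in the other vehicle arrays. CLU and ZNF467 also lost the call without each of the 1w50 nM arrays. Calls that needed replicate 2 included LOXL1, a lysyl oxidase of elastic fibres, at 1.43 ± 0.38 with all arrays (adjusted p = 0.0146) and 0.82 without it (adjusted p = 0.0603). SENP7, a SUMO protease, needed both replicates 1 and 2, and its 1w50 nM replicate 3, at 72.6, lay among the vehicle signals. LOXL1 and SENP7 were also not called without 1w50 nM replicate 1 or without 1w50 nM replicate 2.

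**Figure D4:**
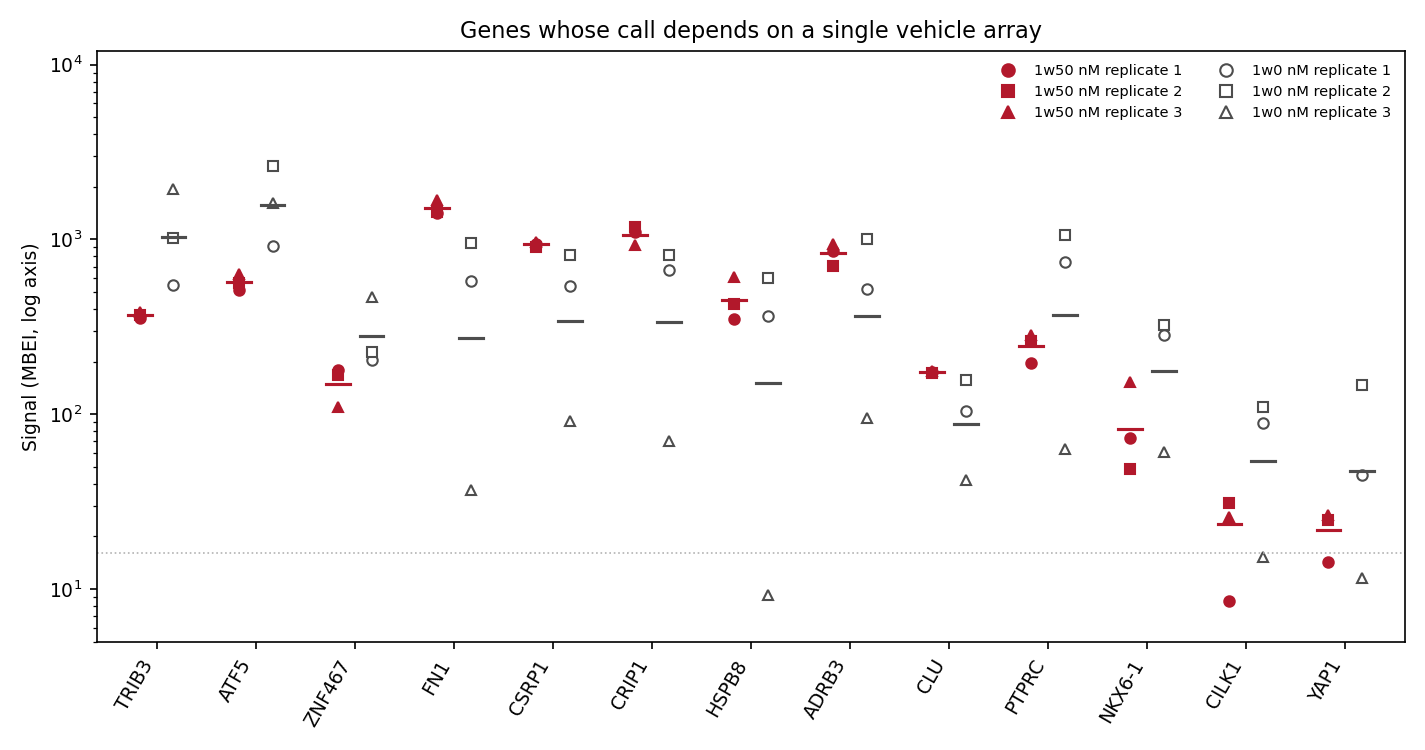
Signals (MBEI, log axis) of genes whose call depends on a vehicle array, filled red for the 1w50 nM arrays and open grey for the 1w0 nM arrays, with one marker shape per replicate, bars at the means of the log2 signals and a dotted line at the floor of 16. The triangle of 1w0 nM replicate 3 lies far from the other vehicle markers, below them in FN1 (36.9), HSPB8 (9.24) and PTPRC (63.6) and above them in TRIB3 (1953) and ZNF467 (469.9).

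Falls and rises were unevenly spread over the chromosomes. On chromosome 4, 75 of 309 tested genes fell (24.3%) and 14 rose, and on chromosome 13, 33 of 167 fell (19.8%) and 4 rose. Chromosome 19 had 15 falls (2.48%) and 78 rises among 605 genes, and chromosome 22 had 4 falls (1.72%) and 29 rises among 232. The median log2 fold change was -0.14 on chromosome 4 and -0.16 on chromosome 13, against 0.18 on chromosome 19 and 0.16 on chromosome 22, and each of these medians kept its sign against each vehicle array alone. Chromosome 8 behaved differently. With all arrays 23 of its 359 genes fell (6.41%), but 116 fell without vehicle replicate 3 (32.3%, where 20% of all genes fell) and 7 fell without replicate 2. Its median was -0.06 against vehicle replicate 1, -0.34 against replicate 2 and 0.35 against replicate 3, the widest range of any chromosome.

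**Figure D5:**
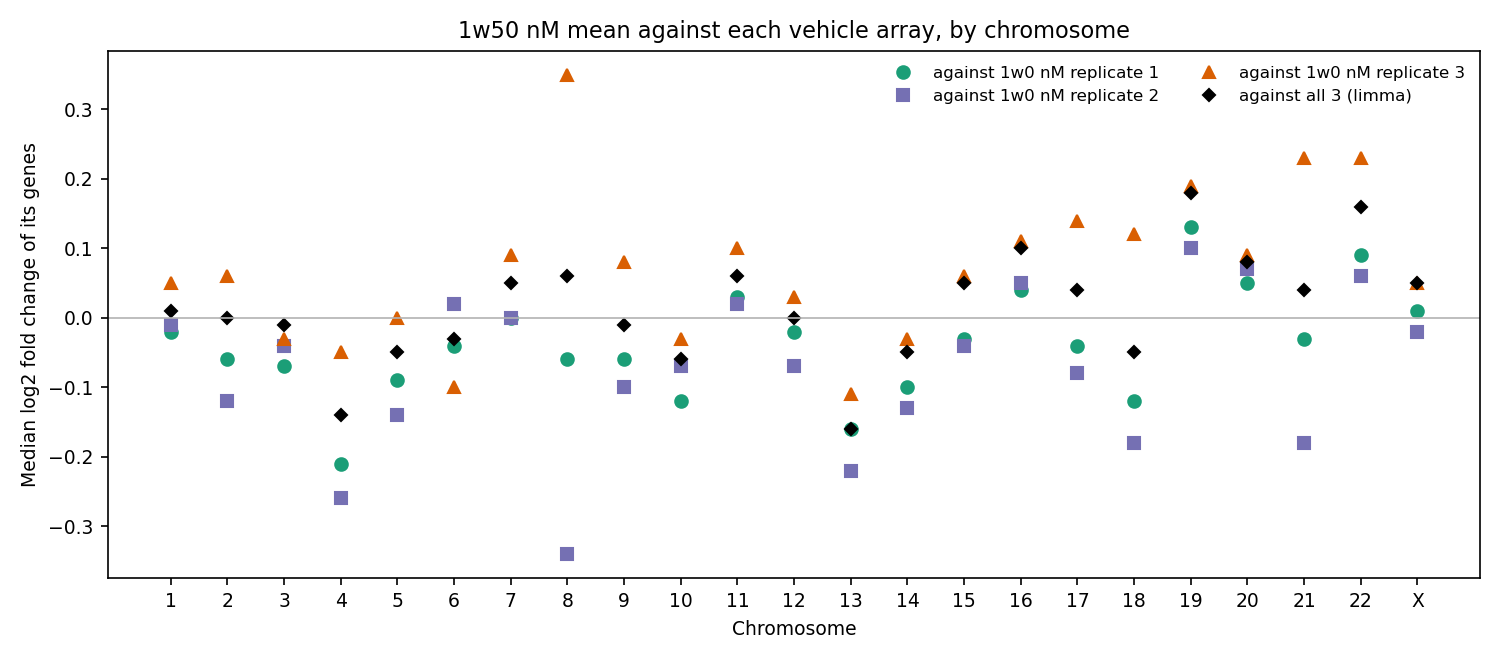
Median log2 fold change (y axis) of the tested genes of each chromosome (x axis), the mean of the 1w50 nM arrays minus each single 1w0 nM array (coloured markers) and the limma estimate over all 3 (black diamonds). The markers lie close together on chromosomes 13 and 19 and farthest apart on chromosome 8, at -0.34 against vehicle replicate 2 and 0.35 against replicate 3.

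The genes that fell were longer than those that rose. The median span in RefSeq was 43.98 kb for the falls, 22.99 kb for the rises and 30.8 kb for all genes tested, and it was 51.7 kb and 16.6 kb for falls and rises of at least 2-fold. In 5 equal bins of span from short to long, 6.50%, 9.28%, 12%, 15.3% and 13.5% of genes fell and 10.9%, 10.4%, 8.79%, 7.26% and 6.50% rose. Without vehicle replicate 3 the falls were 12.6% in the shortest bin and 23.9% in the longest. The order also held at matched brightness, for among genes of middle signal 11.1% of the shortest fell, 16.1% of those of middle span and 19.5% of the longest, and among the brightest the shares were 6.97%, 15.4% and 15.4%. Span, signal and chromosome are related to each other, and their parts were not told apart.

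Few genes passed the test between the doses at 1 week. Between 1w50 nM and 1w5 nM, 1 gene fell (0.0109% of 9162) and none rose. This gene was YEATS4, a reader of acetylated histones, with 21.8, 25.8 and 19.6 in the 1w50 nM arrays, against 61.0, 51.0 and 59.4 in the 1w5 nM arrays (log2 fold change -1.35 ± 0.19, adjusted p = 0.0142). In the 1w0 nM arrays it had 48.7, 60.6 and 39.9, and it fell against these as well (-1.14 ± 0.19, adjusted p = 0.000886). The 15 largest falls against vehicle, which were chosen on the same 1w50 nM arrays, all had a lower mean in 1w50 nM than in 1w5 nM, and none passed the test. The log2 difference was -1.26 ± 0.32 in HERC4 (adjusted p = 0.142), -0.86 ± 0.27 in SLC6A15 (adjusted p = 0.19) and -0.01 ± 0.41 in FABP7 (adjusted p = 0.996). Among the 10 largest rises the difference between the doses took both signs, and none passed the test. Values were -0.49 ± 0.45 in TNC, -0.38 ± 0.20 in CRYBA2, 0.11 ± 0.28 in DLK1 and 0.11 ± 0.17 in LGALS1. Each of these 4 genes had also risen with 5 nM against vehicle, by 2.87, 2.37, 2.79 and 2.48 on the log2 scale. A change that grows with dose was thus not shown for the rises. The 15 largest falls were likewise all lower in 1w5 nM than in 1w0 nM, with log2 differences from -2.35 in FABP7 to -0.64 in HERC4. Both doses were compared with the same vehicle arrays on which these genes were chosen, so the 2 comparisons are not independent.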

How the data were processed

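Total RNA of SK-N-MC cells was hybridized by the authors to Affymetrix arrays. The deposited values are linear intensities, 1 model-based index per probe set from dChip, the program of the authors, whose version and normalization method are not given in the sources used here. Detection calls are not used here. Of 22283 probe sets, 19071 had a single gene. Signals were floored at 16 and taken to log2, probe sets under 50 on all but 2 or fewer of the 18 arrays were dropped, and the brightest remaining one stood for its gene, which left 9162 genes. limma 3.58.1 in R 4.3.3 was fitted to all 18 arrays with 6 group means and an intensity trend (12 residual and 5.71 prior degrees of freedom), with Benjamini-Hochberg adjustment over all genes. The fit was tested on simulated data. The number of arrays limits the precision. The p-values rest on the spread between the 3 pooled samples within each of the 6 groups, moderated over genes. They do not rest on the spread of the compared groups alone, and with only the 6 arrays compared 152 genes fell. The members and gene lists were chosen with earlier results of these data known. Named genes were the 15 largest falls and 10 largest rises with separated arrays, up to 5 called genes of each list by adjusted p, RB1, CDKN1B, YEATS4 and B2M, and, per vehicle array, the 5 largest changes called only without it or only with it. ATF3, CHAC1 and SLC7A1 were named for a promoter match, and ATF4, DDIT3, CEBPB, SLC3A2, VEGFA, COL3A1, TWIST1 and single cell type markers after their values were seen. Alternatives were other floors, scaling, filters, probe set rules, sets of arrays and tests, and leaving out each array. Each vehicle array as the only one was added after the data were seen.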

Additional observations from a re-analysis of the deposited data

How the results depend on the processing

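With all arrays 1036 genes fell, 802 rose, 127 fell at least 2-fold and 100 rose at least 2-fold. Leaving out each of the 6 arrays gave between 541 and 1836 falls, between 371 and 1271 rises, between 93 and 336 large falls and between 84 and 156 large rises. With each vehicle array as the only one, in a fit that assumes it varies like the other groups, the counts in that order were 953, 575, 246 and 180 for replicate 1, 1449, 830, 471 and 247 for replicate 2, and 492, 1259, 121 and 491 for replicate 3. Restricting the fit to the 6 arrays compared, with fewer residual degrees of freedom, gave 152, 121, 60 and 57, and to the 9 arrays of 1 week 692, 468, 115 and 92. Array weights gave 943, 517, 274 and 153, and a started log 1020, 799, 74 and 62, and the cause was not tested. The methods' t-test gave 948, 971, 90 and 87 at its unadjusted threshold and 3, 1, 0 and 0 after Benjamini-Hochberg. Other floors, scalings, filters, probe set means and a fit without the trend stayed within 1.5 times of each count. Among these, quantile normalization gave 954 falls and 966 rises, so that falls no longer outnumbered rises, with 124 and 115 of at least 2-fold. Deviations of arrays with the same replicate number correlated at -0.08, -0.02 and -0.15, and those with different numbers between -0.19 and 0.18. The main fit did not use the numbers as pairs, a choice that these correlations cannot decide. Deviations from means of 3 arrays cannot tell whether the numbers mark the 3 experiments. The replicate block gave 951, 737, 122 and 99, and with the 6 arrays alone it gave 0 calls of each kind, with 1951 genes at an unadjusted limma p below 0.05.

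Of the named genes, 11 values turned direction. Against vehicle replicate 3 alone the log2 fold change was 0.14 for DERL2, 0.55 for CILK1, 0.44 for COXFA4L2, 0.44 for NKX6-1, 0.45 for YAP1 and 1.95 for PTPRC. Against replicate 2 alone it was -0.41 for HSPB8 and -0.28 for ADRB3. Leaving out single arrays gave between -0.05 and 2.57 for HSPB8 and between -1.86 and 0.17 for PTPRC, and NDUFA5 gave 0.13 as the mean of its probe sets. Over 206 named genes and all settings, 4033 values kept direction and side of the threshold, 1039 lost the call and 55 gained one. A gene whose signal is near the floor on one side has only a lower bound of its change.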

Other observations

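RAB and ARF small GTPases, which direct vesicles, fell in 8 of 39 genes and rose in 5 (median -0.17), where 11.3% of all genes fell and 8.75% rose. The falls numbered 5, 7 and 12 without vehicle replicate 1, 2 or 3, and 5 falls and 2 rises were called in each of these fits. RAB4A, of recycling endosomes, had 98.6, 89.7 and 88.2 in the 1w50 nM arrays, against 190.4, 186 and 151 in the 1w0 nM arrays (-0.93 ± 0.13, adjusted p = 0.000174), and RAB31 rose, with 100.3, 119 and 105 in the 1w50 nM arrays, against 74.5, 55.4 and 62.1 in the 1w0 nM arrays (0.77 ± 0.17, adjusted p = 0.00558). Translation factors fell in 5 of 42 and rose in 3, with 3, 5 and 7 falls and 1, 2 and 4 rises without vehicle replicate 1, 2 or 3. EIF4E, the cap-binding protein, had 487, 529 and 692 in the 1w50 nM arrays, against 1009.7, 1167 and 938 in the 1w0 nM arrays (-0.88 ± 0.18, adjusted p = 0.00372). Of 52 cytosolic ribosomal protein genes 2 fell and none rose, with a median of 0.03, and 3 fell and 3 rose without vehicle replicate 3. RPL27A had 192, 232 and 340.3 in the 1w50 nM arrays, against 443, 511 and 446 in the 1w0 nM arrays (-0.91 ± 0.18, adjusted p = 0.00251), and the named members of these groups were called in each of the 6 leave-outs. Among cytosolic and mitochondrial chaperones 3 of 27 fell and none rose, with 2, 3 and 7 falls without vehicle replicate 1, 2 or 3. BAG2, a cochaperone of HSP70, had 232, 244 and 276 in the 1w50 nM arrays, against 514, 536 and 426 in the 1w0 nM arrays (-0.97 ± 0.22, adjusted p = 0.00543).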
